A study of Homo sapiens with 4 samples.

Results

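The mitochondrial ribosomal protein genes are the nuclear genes that encode the proteins of the ribosome inside mitochondria. They were taken as the protein-coding genes whose symbol is MRPL or MRPS followed by a number and at most 1 letter, and 78 such genes were found among the symbols of GENCODE 44, 49 of the large (MRPL) and 29 of the small (MRPS) subunit. Counts were joined for 77 of them among 63677 genes in all, and 72 of them, 46 large and 26 small, were among the 15116 genes with enough counts for a test. The RNA came from HCT116, an established colorectal cancer cell line, grown in RPMI medium and transfected with an antisense oligonucleotide (ASO). One group received an anti-GAA ASO, directed at RNAs with repeats of GAA (libraries 232 and 234, replicates 1 and 2), and the other a control ASO (the libraries of the same numbers), with no further treatment or allele named for either. The labels give a transfection of 48 h, whereas the methods name a shorter time for ASOs. Both groups come from 1 cell line, and the libraries hold the RNA of the whole culture, so that less RNA per cell and fewer cells with the RNA cannot be told apart.

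The mitochondrial ribosome makes the few proteins encoded by mitochondrial DNA, all of them membrane subunits of the respiratory chain and of ATP synthase. Its RNAs are transcribed inside the organelle, but all its proteins are made in the cytosol from nuclear genes and imported. Compared with bacterial ribosomes it has lost much of its RNA and gained many proteins that bacteria lack. The large subunit carries the peptidyl transferase centre, the stalk that recruits translation factors, the central protuberance and the tunnel through which the new chain leaves. The small subunit holds the mRNA channel, the decoding site and the head.

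Because the anti-GAA ASO is directed at GAA repeats, the uninterrupted runs of this repeat in the members' longest transcripts were examined first. MRPL48 was the only tested member with a run of at least 12 nt, 1 of 72 (1.39%), against 2.54% of all tested genes, and 7 members (9.72%) had a run of at least 9 nt, against 20.1%. Their longest transcripts were also shorter, with a median of 1723 nt against 3407 nt over all tested genes. The windows below show the 4 longest runs in 30 nt of the RNA strand of GRCh38, with the run in capitals.
MRPL48, run at chr11:73844810-73844821, plus strand: ttacagcccAAGAAGAAGAAGggaaaagtg
MRPL22, run at chr5:154950880-154950889, plus strand: cgaaaatgggAGAAGAAGAAtaaaattgtt
MRPS5, run at chr2:95108259-95108268, minus strand: gtgggaccgaAAGAAGAAGAtgaaggttaa
MRPL45, run at chr17:38322541-38322550, plus strand: agctgaaaccAGAAGAAGAAtatgaagagg
The run in MRPL22 lies in a coding exon, as does that in MRPL45, which was not analysed for expression here. In MRPL48 it lies in the 5′ UTR of the longest transcript, and in MRPS5 in an exon of a longest transcript without annotated coding sequence, while another transcript of each gene codes through it. The 3 counted genes of this set all had positive log2 fold changes, given with their structural groups below.

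Total counts ranged from 10538284 (anti-GAA ASO replicate 1) to 17894953 (anti-GAA ASO replicate 2). The members together took 1.18% and 1.09% of the counts in the anti-GAA ASO libraries and 1.15% and 1.08% in the control ASO libraries, so the groups overlapped. Levels are given as CPM, a gene's counts per 1000000 counts of the library size after TMM scaling. Markers of colon epithelial cells summed to 2575 to 2907 CPM with the anti-GAA ASO and 2669 to 2911 CPM in the controls, a sum led by KRT19 at 1327 and 1639 against 1114 and 1366 CPM. Of these 7 markers VIL1 was not tested, as no library exceeded 0.112 CPM. Of the 6 tested, 4 (EPCAM, KRT8, KRT18 and CDH1) stood lower in both treated libraries than in both controls. Among all tested genes 16.9% did so. CDX2 stood higher in both treated libraries than in both controls (log2 fold change 0.28 ± 0.22). KRT19 was also positive (0.26 ± 0.22), but its groups overlapped. The median log2 fold change over the 6 was −0.24, with KRT18 lowest at −0.54 ± 0.22 (edgeR adjusted p 0.996). The part of these marker differences in the values of the members was not tested. Markers of immune cells summed to 0.606 to 0.843 and 0.708 to 1.30 CPM, with 1 of 5 at 0 in all libraries. Markers of fibroblasts or endothelium summed to 10.2 to 13.2 and 12.2 to 15.3 CPM, with 3 of 5 at 0.

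Levels differed widely among the members. Per kb of the canonical transcript, MRPL51 had the highest mean level at 649 CPM per kb, followed by MRPL41 at 493 and MRPS15 at 434 CPM per kb. MRPL42 had the lowest among tested members at 0.761 CPM per kb, with a canonical transcript of 15557 nt. Without division by length, MRPL42 had a mean of 11.8 CPM, above the 0.706 CPM of MRPL53. MRPL51, a protein that bacterial ribosomes lack, stood at 538 and 592 CPM in the treated and at 512 and 690 CPM in the control libraries, so the control libraries enclosed the treated ones. MRPL41, also without a bacterial counterpart, stood at 301 and 272 CPM against 371 and 205 CPM. MRPL18, a central protuberance protein and the third highest by length of the longest transcript, stood at 404 and 384 CPM against 374 and 300 CPM, both treated libraries above both control libraries.

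No mitochondrial ribosomal protein gene passed the test between the ASOs, but most stood slightly higher with the anti-GAA ASO. Of the 72 tested, 54 had a positive and 18 a negative log2 fold change in edgeR's quasi-likelihood fit, so 75.0% were positive, against 51.6% of all tested genes. Their median log2 fold change was 0.11, against 0.01 over all tested genes, and they ranged from −0.40 to 0.48. The spread of the fold changes (SD 0.181) was narrower than over all genes (0.474) and smaller than the median standard error of a member (0.221). The members' median level was 122 to 157 CPM across the libraries, and genes of like level were not compared for this spread. With Benjamini-Hochberg adjustment over all tested genes, 0 members were called in either direction, as were 0% of all genes, and the members' edgeR adjusted p-values were all at least 0.996. At an unadjusted p under 0.05 edgeR also gave 0 members, against 3.46% of all genes lower and 1.02% higher. DESeq2 likewise called 0 members, against 0.0331% of all genes lower and 0% higher, and had 0 members under an unadjusted p of 0.05, against 2.1% lower and 0.662% higher.

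**Figure D1:**
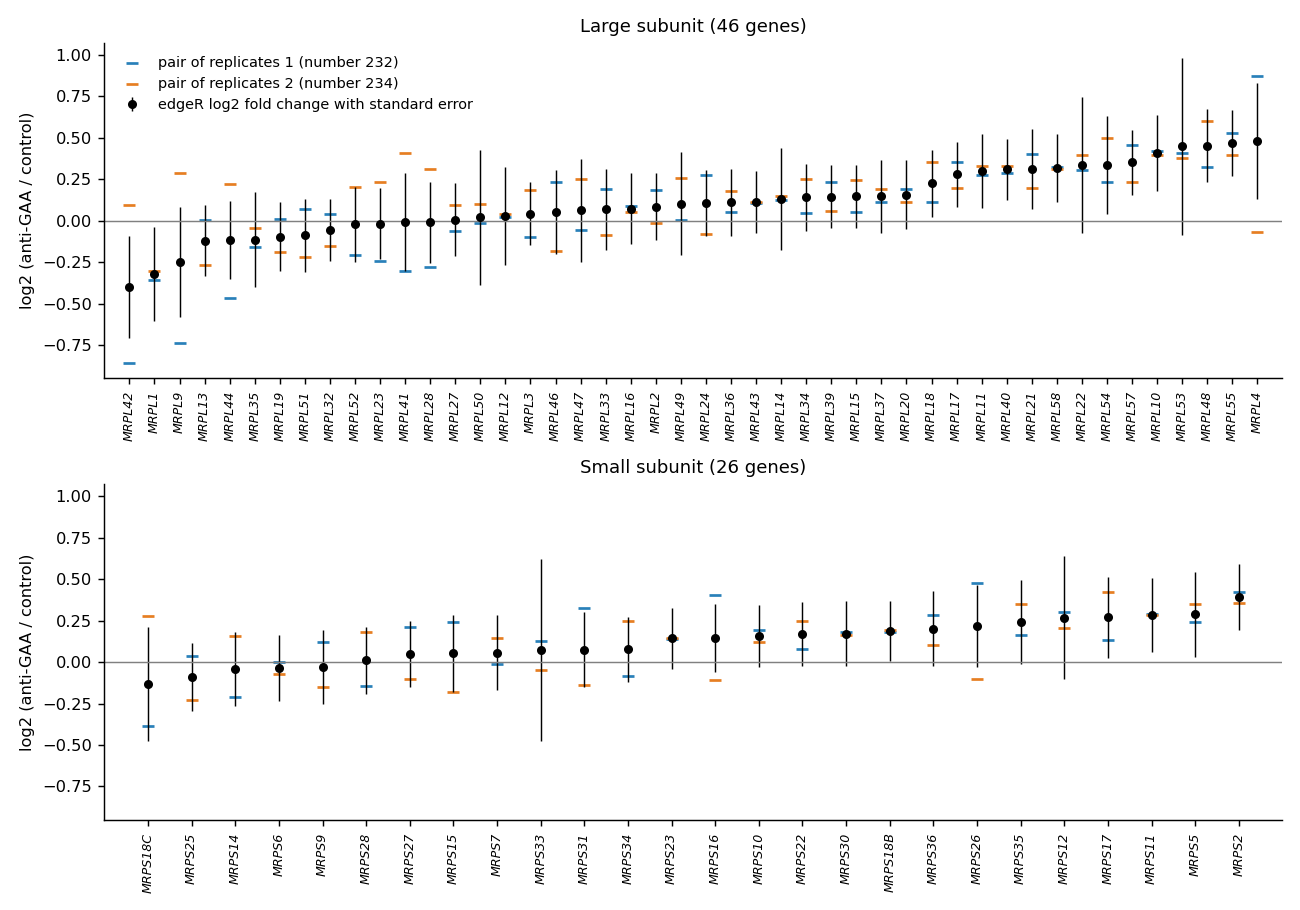
Log2 fold change of anti-GAA over control ASO (y axis) for the 46 large (top) and 26 small subunit genes tested (x axis, ordered by fold change), with black points and bars for edgeR's estimate and its standard error and coloured dashes for the difference in log2 CPM within each pair of replicates of equal number. Estimates run from −0.40 to 0.48, and 54 of 72 lie above 0.

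The replicate numbers 232 and 234 occur once under each ASO, and the labels do not say what they share. Taken as pairs, the median difference in log2 CPM over the members was 0.13 for number 232 and 0.18 for number 234, while over all tested genes it was −0.004 and 0.02. Of the 72 members, 36 were higher with the anti-GAA ASO in both pairs, against 31.8% of all tested genes, and 2 (2.78%) were lower in both, against 30% of all tested genes. Both treated libraries stood above both control libraries in 18 members (25.0%), against 15.5% of all genes, and below them in 0, against 16.9%. Across the 72 members, which are not independent of each other, the difference in one pair had r = 0.03 with that in the other, against 0.40 across all tested genes. A fit with the number as a block called 0 members, against 1.37% of all genes lower and 0.337% higher. That fit placed 12 members higher at an unadjusted p under 0.05, against 6.86% of all genes, and 1 member lower, against 9.7%. The 12 were MRPS5, MRPL11, MRPL40, MRPL21, MRPL58, MRPL22, MRPL54, MRPL57, MRPS2, MRPL10, MRPL48 and MRPL55, and the 1 was MRPL1. DESeq2 with the block, added after seeing the data, also called 0 members, against 0.298% of all genes lower and 0.086% higher, and had 5 members higher and 0 lower under an unadjusted p of 0.05, against 2.71% and 3.51%.

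**Figure D2:**
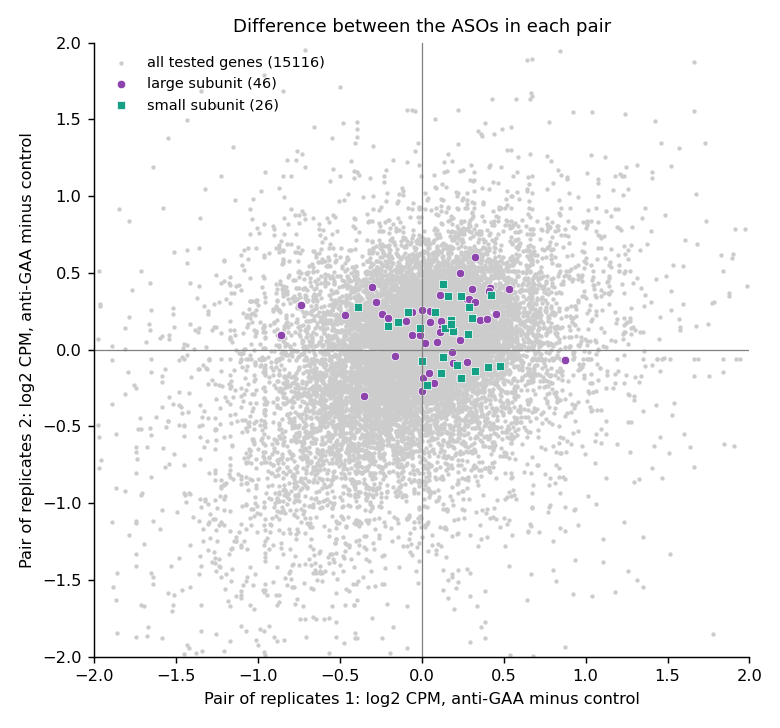
Difference in log2 CPM, anti-GAA minus control ASO, in the pair of number 232 (x axis) and of number 234 (y axis), for all 15116 tested genes (grey) and the 72 members by subunit. 36 members lie above 0 on both axes and 2 below 0 on both, and 166 other genes lie outside the axes.

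The 8 positive members with the smallest p-values came from both subunits, 7 from the large and 1, MRPS2, from the small. MRPL55, a protein of the large subunit, stood at 90.9 and 77.3 CPM in the treated and at 62.9 and 58.7 CPM in the control libraries. The treated libraries did not overlap the controls, and the log2 fold change was 0.47 ± 0.20 (SE), with an unadjusted p of 0.053 and an adjusted p of 0.996 in edgeR. MRPL57, a mitochondria-specific protein, stood at 357 and 293 CPM against 260 and 248 CPM (log2 fold change 0.35 ± 0.20), again without overlap. MRPL4, a homologue of a bacterial large subunit protein, had the largest positive fold change (0.48 ± 0.35) but stood at 25.5 and 12.7 CPM against 13.8 and 13.3 CPM, so that anti-GAA ASO replicate 1 alone was high, and without that library the log2 fold change was −0.09. It was named after its values were seen.

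The stalk of the large subunit, which recruits translation factors, had the highest median among the structural groups. All 5 of its tested genes had positive fold changes with a median of 0.34, against 51.6% positive among all tested genes. All 5 were higher in both pairs, against 31.8% of all tested genes. They also all stood higher in the libraries of number 232, against 48.6% of all tested genes. The median absolute difference in log2 CPM was 0.36 between the numbers and 0.36 between the ASOs. MRPL10, the protein that anchors the stalk, stood at 295 and 228 CPM against 221 and 173 CPM (log2 fold change 0.41 ± 0.23). MRPL11, at the base of the stalk, stood at 198 and 159 CPM against 163 and 127 CPM. The libraries of both groups overlapped for MRPL11 but not for MRPL10. MRPL12, which forms the mobile arm of the stalk, stood at 315 and 208 CPM against 311 and 202 CPM, and was the lowest of the group with a fold change of 0.03 ± 0.30. In both groups of MRPL12 replicate 1 was far above replicate 2. MRPL53 stood highest on the log2 scale (0.45 ± 0.53), but at 0.909 and 0.731 CPM against 0.652 and 0.531 CPM, and 99.2% of the bases in its canonical transcript's exons lie within exons of CCDC142, so that its counts are uncertain. MRPL54 stood at 88.5 and 64.6 CPM against 75.4 and 45.7 CPM.

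In the central protuberance, a knob on top of the large subunit, 5 of 6 tested genes were positive with a median of 0.27. MRPL48, which holds the longest GAA run of the family shown above, stood at 88.5 and 81.3 CPM in the treated and at 70.6 and 53.5 CPM in the control libraries. It was the highest of the group (log2 fold change 0.45 ± 0.22, adjusted p 0.996 in edgeR), and its groups did not overlap. MRPL40 stood at 158 and 163 CPM against 129 and 129 CPM (0.31 ± 0.18), with replicates close together in each group. MRPL58, which also works as a peptidyl-tRNA hydrolase that frees stalled chains, stood at 266 and 222 CPM against 212 and 179 CPM (0.32 ± 0.21). MRPL52 was the lowest (−0.02 ± 0.23), at 248 and 235 CPM against 286 and 203 CPM.

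Around the peptide exit tunnel 4 of 5 tested genes were positive, with a median of 0.11. MRPL22, which lines the tunnel and holds a GAA run in its coding exon, stood at 155 and 82.4 CPM against 126 and 62.6 CPM (0.34 ± 0.41), so the replicates of one ASO differed more than the ASOs did. MRPL17 stood at 248 and 208 CPM against 193 and 182 CPM (0.28 ± 0.20), without overlap. MRPL23, where the tunnel opens, stood at 204 and 213 CPM against 241 and 181 CPM (−0.02 ± 0.21). The peptidyl transferase region, where peptide bonds form, had 4 of 4 positive with a median of 0.06, and its highest member, MRPL2, stood at 36.0 and 35.9 CPM against 31.6 and 36.2 CPM (0.08 ± 0.20). MRPL27, the lowest, stood at 234 and 199 CPM against 245 and 186 CPM (0.01 ± 0.22).

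The 13 negative large-subunit genes were led by MRPL42, which has no bacterial counterpart. It stood at 8.89 and 11.5 CPM in the treated and at 16.2 and 10.7 CPM in the control libraries, which gave −0.40 ± 0.31 on the log2 scale, and its pairs differed in sign (−0.86 and 0.09). MRPL1, a homologue of bacterial L1, stood at 23.9 and 35.6 CPM against 30.6 and 43.9 CPM (−0.32 ± 0.28). It was lower in both pairs, by −0.35 and −0.30, and had an unadjusted p of 0.048 with the number as a block. MRPL35 was lower in both pairs too, by −0.16 and −0.04, at 77.3 and 54.6 CPM against 86.4 and 56.2 CPM.

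The other negative genes among those with the smallest p differed in sign between their pairs. MRPL9 stood at 7.58 and 9.61 CPM against 12.7 and 7.84 CPM (−0.25 ± 0.33). MRPL44, a protein with a ribonuclease III fold, stood at 27.8 and 36.0 CPM against 38.5 and 30.8 CPM (−0.12 ± 0.24). MRPL13, MRPL19 and MRPS25 had fold changes of −0.12 ± 0.21, −0.10 ± 0.21 and −0.09 ± 0.20. In each of these the treated and control libraries overlapped.

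In the small subunit 21 of 26 tested genes were positive. MRPS2, a homologue of bacterial S2, stood at 170 and 144 CPM in the treated and at 127 and 113 CPM in the control libraries, with no overlap (log2 fold change 0.39 ± 0.20, adjusted p 0.996 in edgeR). At the decoding site and mRNA channel, MRPS5, which holds a GAA run shown above, stood at 141 and 106 CPM against 119 and 82.9 CPM (0.29 ± 0.26). MRPS12, a decoding-site protein, stood at 277 and 148 CPM against 224 and 129 CPM (0.27 ± 0.37). Both were higher in each pair, yet replicate 1 of the control ASO stood above replicate 2 of the anti-GAA ASO in both.

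In the head of the small subunit 5 of 7 genes were positive, with a median of 0.07. MRPS35 was the highest, at 167 and 130 CPM against 150 and 102 CPM (0.24 ± 0.26), and MRPS14 the lowest, at 57.9 and 56.1 CPM against 66.9 and 50.4 CPM (−0.04 ± 0.22). MRPS30 carries a small-subunit name but sits in the large subunit. It stood at 302 and 347 CPM against 266 and 309 CPM (0.17 ± 0.20).

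The difference between large and small subunit genes was within the spread between the pairs. The median log2 fold change was 0.11 over the 46 large and 0.14 over the 26 small subunit genes, a difference of −0.04 (large minus small). Within the pairs this difference was −0.07 for number 232 and 0.04 for number 234, so its sign was not kept and its SD over the pairs was 0.0795. The ratio of summed CPM, large over small, was 1.90 and 1.92 in the treated libraries against 1.99 and 1.86, the controls enclosing the treated libraries. Genes with a bacterial homologue had 30 of 42 positive and a median of 0.08, and mitochondria-specific genes 22 of 28 positive and a median of 0.13. MRPL55 and MRPS36 were in neither list. The MRPS36 protein has since been assigned to the oxoglutarate dehydrogenase complex.

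The replicate number separated the members more than the ASO did. The libraries of number 232 had the higher mean log2 CPM in 56 of 72 members, against 48.6% of all tested genes, with a median difference of 0.23 over the members and −0.01 over all genes. The difference between numbers exceeded that between ASOs in 49 members (68.1%), against 59.2% of all tested genes. MRPS33, a protein of the small subunit's head, stood at 97.0 CPM in number 232 and 35.2 in number 234 under the anti-GAA ASO, and at 88.8 and 36.4 CPM under the control ASO. MRPL50 had the same order, at 38.5 and 20.9 CPM in the treated and 38.8 and 19.5 CPM in the control libraries. MRPL1 had the opposite order. What the numbers share was not tested.

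The median of the members depended on single libraries. It was 0.04 without anti-GAA ASO replicate 1 and 0.06 without control ASO replicate 2, and it was 0.22 without anti-GAA ASO replicate 2 and 0.24 without control ASO replicate 1. The number of members below 0 was 31 and 33 of 73 in the first 2 of these, against 49.9% and 47.3% of all genes. In the last 2 it was 14 of 72 and 12 of 73, against 52.4% and 49.6% of all genes. When libraries were scaled to total counts in place of TMM the median of the members was 0.02, and that of all genes was −0.08. The members' median then stood 0.097 above that of all genes, against 0.096 with TMM. Below 0 were 34 members, against 61.0% of all genes.

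Genes that work with the mitochondrial ribosome had medians near that of the members but, among the assembly factors, a slightly wider range. The 5 ribosomal proteins with other names had 3 positive fold changes and 2 negative, with a median of 0.10. GADD45GIP1, a large subunit protein, stood at 341 and 299 CPM against 284 and 261 CPM (0.23 ± 0.19), and DAP3, a GTP-binding protein of the small subunit, at 286 and 251 CPM against 273 and 268 CPM (−0.01 ± 0.19). CHCHD1, PTCD3 and AURKAIP1 had log2 fold changes of 0.10, 0.10 and −0.05. Of the assembly factors 24 of 28 were tested, with 16 positive, 8 negative and a median of 0.10. They ranged from −0.54 to 0.43. Of these factors 6 (25.0%) were lower in both pairs, against 30% of all tested genes and 2.78% of the members. Both treated libraries stood below both control libraries in 4 (16.7%), against 16.9% of all tested genes and 0 of the members. Of the mitochondrial translation factors 16 of 17 were tested, with 12 positive, 4 negative and a median of 0.17. Of these 16, 3 (18.8%) were lower in both pairs. Both treated libraries stood below both controls in 12.5% of them and above both controls in 37.5%. No gene of these lists was called, against a background of 0%.

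The ribosomal proteins of the cytosol and the respiratory chain had median log2 fold changes near that of the members, but wider ranges. These ran from −0.87 to 1.08 for the cytosolic ribosome and from −0.54 to 0.79 for the respiratory chain. Of 81 cytosolic ribosomal protein genes 62 were positive, with a median of 0.11, and their pair medians were 0.01 and 0.24. Of them 6 (7.41%) were lower in both pairs. Both treated libraries stood below both controls in 4.94% of them and above both controls in 17.3%. Of 79 nuclear-encoded subunits of the respiratory chain 67 were positive, with a median of 0.15. In the fit with the number as a block 1 of them was called higher, 1.27% against 0.337% of all genes. Of the 79 subunits 5 (6.33%) were lower in both pairs. Both treated libraries stood below both controls in 2.53% of them and above both controls in 30.4%. A low share of lowered genes was thus not particular to the members.

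The promoters of these genes were searched for motifs, described here without a test. RefSeq sequences of GRCh38.p14, 250 bases before to 50 after the start, were matched for 69 of the 78 members, and motifs were searched on both strands. CCGGAAG, the core bound by GABP and other ETS factors, was present in 29 members (42.0%), against 19.1% of 10558 tested genes with a promoter and 10.7% of all 27305. AAGATGGC, the core bound by YY1, was present in 20 members (29.0%), against 5.29% and 3.03%, and 8 members had both. GCATGCGC, a core of NRF1 sites, was in 6 (8.70%), against 5.49% of tested genes, GGGCGG in 42 (60.9% against 70.8%), CCAAT in 20 (29.0% against 36.8%) and TATAAA in 2 (2.90% against 5.54%). CCGGAAG ends in the letters with which AAGATGGC begins, so matches of both can share bases, and no match was tested as a bound site.

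Fold changes were set beside the motifs. Tested members with CCGGAAG had a median log2 fold change of 0.11 and those without 0.11, and with AAGATGGC the medians were 0.06 and 0.13. The promoters below show only CCGGAAG and AAGATGGC in capitals, and matches of the other motifs are not marked. They are those of MRPL58, with a pair of CCGGAAG matches on opposite strands, MRPL40, with 1, and MRPL42, with AAGATGGC. They were chosen after the fold changes were seen, as members with p-values among the smallest in either direction.
MRPL58, chr17:75012420-75012719, plus strand: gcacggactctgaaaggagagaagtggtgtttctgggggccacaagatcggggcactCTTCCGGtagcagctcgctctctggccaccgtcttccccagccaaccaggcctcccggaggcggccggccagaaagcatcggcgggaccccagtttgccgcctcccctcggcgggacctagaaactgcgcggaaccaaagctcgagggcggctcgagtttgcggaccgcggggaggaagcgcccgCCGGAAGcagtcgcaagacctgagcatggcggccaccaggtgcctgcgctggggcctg
MRPL40, chr22:19432295-19432594, plus strand: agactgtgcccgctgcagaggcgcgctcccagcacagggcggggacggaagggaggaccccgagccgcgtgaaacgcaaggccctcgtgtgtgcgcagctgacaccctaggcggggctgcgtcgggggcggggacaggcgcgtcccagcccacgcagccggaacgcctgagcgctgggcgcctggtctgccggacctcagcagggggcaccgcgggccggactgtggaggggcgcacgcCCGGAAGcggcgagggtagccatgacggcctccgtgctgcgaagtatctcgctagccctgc
MRPL42, chr12:93467264-93467563, plus strand: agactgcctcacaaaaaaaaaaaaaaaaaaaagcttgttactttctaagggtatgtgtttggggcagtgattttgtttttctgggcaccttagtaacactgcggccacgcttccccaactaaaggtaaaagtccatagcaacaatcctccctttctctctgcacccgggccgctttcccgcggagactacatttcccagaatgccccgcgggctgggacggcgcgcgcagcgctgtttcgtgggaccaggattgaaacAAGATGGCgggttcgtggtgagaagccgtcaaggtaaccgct
In MRPL58 and MRPL40 the marked match that lies nearest the start begins at base 243 and base 240 of the window, and in MRPL42 at base 259.

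A few members had almost no counts. MRPS21 had 0 counts in all 4 libraries, which allows a level of up to 0.285, 0.168, 0.195 and 0.188 CPM of the total in the libraries (3 counts each, counting error only). This limit holds for the identifier that was joined, and whether reads of the gene were counted under another identifier was not tested. MRPS24 stood at 0.101 and 0 CPM against 0.326 and 0.295 CPM. MRPL38 stood at 0.202 and 0.169 CPM against 0 and 0.118 CPM, MRPL30 at 0 and 0 CPM against 0.065 and 0 CPM, and MRPS18A at 0.606 and 0.787 CPM against 0.522 and 0.590 CPM. These genes were left out of the test, and no fold is given.

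Low counts went with overlap between genes for MRPL38, MRPS24 and MRPS18A, but not for MRPS21 or MRPL30. MRPS21, with 0 counts, had no overlap, and MRPL30 was covered to only 12.7%. The overlap takes exons of either strand from the annotation used here for symbols, not from the one used for counting. Exons of other counted genes cover 94.3% of the canonical transcript of MRPL38, 90.9% of that of MRPS24 (by the readthrough gene URGCP-MRPS24) and 60.6% of that of MRPS18A. Among the 7 members covered to at least 50%, 3 were not tested and the median level was 1.42 CPM per kb, while among the 49 with no overlap 1 was not tested and the median was 113 CPM per kb. MRPL12 is covered to 69.5% and still stood above 200 CPM in each library. MRPL46 is covered to 73.4% and stood at 75.6 and 50.1 CPM in the treated and at 64.2 and 56.8 CPM in the control libraries. MRPS18C, covered to 83.6%, had a log2 fold change of −0.13 that is uncertain for this reason. A pseudogene named after MRPS18C held 1461 counts, and how alike their sequences are was not tested.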

How the data were processed

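RNA-seq of HCT116 cells was measured in 4 libraries, 2 for each ASO. As the authors deposited them, the values are whole-number counts of reads per gene, not normalized. Per the methods, reads were trimmed with Trimmomatic, aligned to hg19 with STAR and counted per gene with featureCounts, and the strand setting is not given in the sources used here. The labels name a total RNA kit and the methods a stranded mRNA kit. No column with values per sample was left unused (0).

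Genes kept by filterByExpr (15116) were scaled by TMM (factors 0.941 to 1.07) and tested in R 4.3.3 with edgeR 4.0.16 (quasi-likelihood F-test, with a term for the condition alone). Benjamini-Hochberg adjustment ran over every gene tested, and calls were made under 0.05. The standard error is the absolute log2 fold change divided by the square root of F. Log2 CPM used a prior count of 2. DESeq2 1.42.0, other scalings and filters, offsets for length and GC (mgcv 1.9.3), a replicate block and fits without each library were alternatives, and DESeq2 with the block was chosen after seeing the data. Simulated counts were used to test edgeR with and without the block and DESeq2 without it, but not the other alternatives. An exact permutation test of 2 against 2 libraries cannot give a p below 0.333, so none was run. The methods name duplicate experiments, and the reporting summary states that experiments were repeated independently at least 2 times. Nothing in the labels says that these replicates are separate cultures, so p-values measure the spread between these libraries, which may be technical.

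Symbols, transcripts and GRCh38 positions came from GENCODE 44, joined by Ensembl identifier (52181 of 63677 matched), and no position was carried over from hg19. The canonical transcript gave levels per kb. The members, gene lists and tests were chosen with earlier results of these data known. Named were the 8 members with the smallest p in each direction at a mean of at least 5 CPM, the 3 with the highest and the 3 with the lowest level per kb of longest transcript, members called, members whose name and subunit differ, members whose GAA run reaches 12 nt, the extremes of each structural group, and those not tested. Others named illustrate the pairs, the numbers, the exon overlap or a group and were chosen after their values were seen.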

Additional observations from a re-analysis of the deposited data

How the results depend on the processing

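Depth limits the members with few counts, and 2 libraries per group limit the rest: the median standard error of 0.221 was larger than most members' fold changes. No alternative called a member. Over all genes, calls were 0 lower and 0 higher in edgeR's fit without a block, while 523 and 154 passed an unadjusted p of 0.05. DESeq2 called 5 lower and 0 higher, and without a filter edgeR called 111 lower and 5 higher. With libraries scaled to total counts the median was 0.016 over the members, 0.011 over the large and 0.045 over the small subunit. In that fit 34 members were below 0, against 61.0% of all genes. Leaving out each library in turn gave medians of 0.036 to 0.238 over the members, −0.0069 to 0.276 over the large and 0.058 to 0.185 over the small subunit, differences of −0.11 to 0.10 (large minus small), 12 to 33 members below 0, and 0 to 16 genes lower and 0 to 3 higher over all genes. The lone library left in a group was then assumed to vary like the other group.

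The replicate block gave 207 genes lower and 51 higher over all genes in edgeR, and 192 and 100 with offsets for length and GC as well, while DESeq2 with the block called 45 and 13. The labels do not say what the numbers share. Libraries of the same number deviated together (r = 0.56), and the first principal component (52.7% of the variance) separated the numbers and the second (33.1%) the ASOs. The common dispersion was 0.0549 without and 0.0148 with the block.

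Alternatives were run for the 33 tested members that the naming rule gave or whose fold change was printed besides (MRPL4 and MRPS18C). Of these 33, 14 kept the sign of their fold change under every alternative and 50 alternative values had the opposite sign, none past the threshold, and the cause was not tested. Signs changed for MRPL27 at −0.0841, MRPL2 at −0.0125 and MRPL12 at −0.0639 with scaling to total counts, for MRPL27 at −0.00451 without a filter, for MRPL27 at −0.000344 with a mean of at least 1 CPM, for MRPL27 at −0.0121, MRPL19 at 0.0626, MRPS25 at 0.00372, MRPL41 at 0.0305 and MRPL23 at 0.00872 with offsets for length and GC, for MRPL27 at −0.0058, MRPL19 at 0.0717, MRPL41 at 0.0977 and MRPL23 at 0.0234 with the block and these offsets, for MRPL52 at 0.000316 and MRPL41 at 0.0516 with the block, for MRPL52 at 0.00839, MRPL41 at 0.0597 and MRPL23 at 0.0055 in DESeq2 with the block, for MRPL41 at 0.000535 in DESeq2, for MRPL41 at 0.000523 with DESeq2's size factors. Leaving out each library in turn changed the sign of 19 genes, whose log2 fold changes ranged over MRPS35 −8.49e-05 to 0.536, MRPL22 −0.184 to 0.918, MRPL27 −0.167 to 0.21, MRPL51 −0.296 to 0.151, MRPL2 −0.0197 to 0.195, MRPL19 −0.268 to 0.0923, MRPS14 −0.223 to 0.17, MRPS12 −0.244 to 0.717, MRPS25 −0.249 to 0.0654, MRPL35 −0.383 to 0.221, MRPL44 −0.314 to 0.0624, MRPL9 −0.551 to 0.128, MRPL13 −0.321 to 0.0652, MRPL52 −0.238 to 0.238, MRPL41 −0.366 to 0.472, MRPL23 −0.203 to 0.196, MRPL12 −0.296 to 0.368, MRPL4 −0.0883 to 0.91 and MRPS18C −0.543 to 0.448.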
